A study of Mus musculus with 12 samples.

Results

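A set of 9 glycolytic enzymes was followed in the liver of mouse pups at postnatal day 2 (P2): the hexokinases *Hk1* and *Hk2*, the phosphoglucose isomerase *Gpi1*, the liver phosphofructokinase *Pfkl*, the aldolases *Aldoa* and *Aldoc*, *Pgk1*, *Pgam1* and the liver and red cell pyruvate kinase *Pklr*. They were taken by name, and where several probe sets name an enzyme alone, the brightest on average over the 12 arrays was used. Of the 9 enzymes 8 could be measured, among 19938 genes in all, and *Gpi1*, for which no probe set names it alone, was not analysed here. Liver RNA was measured in 6 *Ppara*-/- pups and 6 *Ppara*+/+ pups, 3 females and 3 males of each genotype, on 1 array per pup. The pups came from crosses of heterozygous parents, so that both genotypes developed in heterozygous mothers, and the null allele is constitutive, not limited to the liver. The labels call the strain SV129, whereas the methods of the study give C57BL/6. The study drew the samples from 3 litters for each genotype, so some of the pups were littermates. Each pup's litter is not in the labels, so p-values take littermates as independent. They reflect the spread between pups, not between litters. Whole liver was used, in which fewer cells of a type and less RNA per cell cannot be told apart.

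Glycolysis splits glucose into pyruvate and yields ATP without oxygen. Hexokinases trap glucose as glucose 6-phosphate, phosphofructokinase commits it to the pathway, aldolase cleaves the sugar, and phosphoglycerate kinase and pyruvate kinase make ATP. The steps between are reversible and are shared with gluconeogenesis, the route by which liver makes glucose. PPARα, the product of *Ppara*, is a nuclear receptor that is activated by fatty acids and turns on genes of fatty acid oxidation and ketone body production in liver.

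The values are log2 signals after the robust multi-array average (RMA), so that a difference of 1 is a doubling. *Ppara* itself lay between 10.21 and 10.33 in *Ppara*-/- livers and between 10.98 and 11.27 in *Ppara*+/+ livers. Its log2 fold change was -0.89 (SE 0.0488). All 7 measured hepatocyte markers lay above the array medians, which ran from 7.16 to 7.20. Correlations between arrays ran from 0.989 to 0.996. A gene passed at an adjusted p under 0.05 (limma with genotype and sex as terms, Benjamini-Hochberg adjustment over 35556 probe sets), and fold changes are of *Ppara*-/- over *Ppara*+/+ livers. The array of *Ppara*+/+ replicate 7 weighed most on the total: without it 718 genes passed as higher and 348 as lower, against 397 and 224 with all 12 arrays.

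Of the 8 measured enzymes 2 rose in *Ppara*-/- livers, *Aldoc* and *Pgk1*, and none fell. Over all 19938 genes 1.99% passed as higher and 1.12% as lower. At an unadjusted p under 0.05, 5 of the 8 were higher and 0 lower, against 9.27% of all genes higher and 7.89% lower. That count reads *Hk1* from its brighter probe set, and the other *Hk1* probe set was lower (limma unadjusted p = 0.00324). The exact Mann-Whitney test, adjusted, called 0 of the 8 and 0 of all genes. In 3 enzymes, *Aldoc*, *Pgk1* and *Aldoa*, the lowest *Ppara*-/- pup exceeded the highest *Ppara*+/+ pup, which was so for 2.88% of all genes; the opposite held for 0 of the 8 and for 1.43% of all genes. The log2 fold change was above 0 in 8 of 8 enzymes, against 8998 of the 19938 genes. It was above 0 in 7 of 8 when *Hk1* was read from its other probe set, at -0.19, and *Hk2*, at 0.01, lay below 0 in 3 of the 12 fits that left out a single array. Its median was 0.16 over the enzymes and -0.01 over all genes. The mean signal of the 8 enzymes, with *Hk1* read from its brighter probe set, did not overlap between the genotypes. It lay between 10.84 and 10.94 in *Ppara*-/- pups and between 10.67 and 10.76 in *Ppara*+/+ pups. The study drew *Aldoa*, *Aldoc* and *Pgk1* as higher and hexokinase as lower on these samples. The counts and the separation of the mean signal are therefore not independent evidence of a direction.

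**Figure D1:**
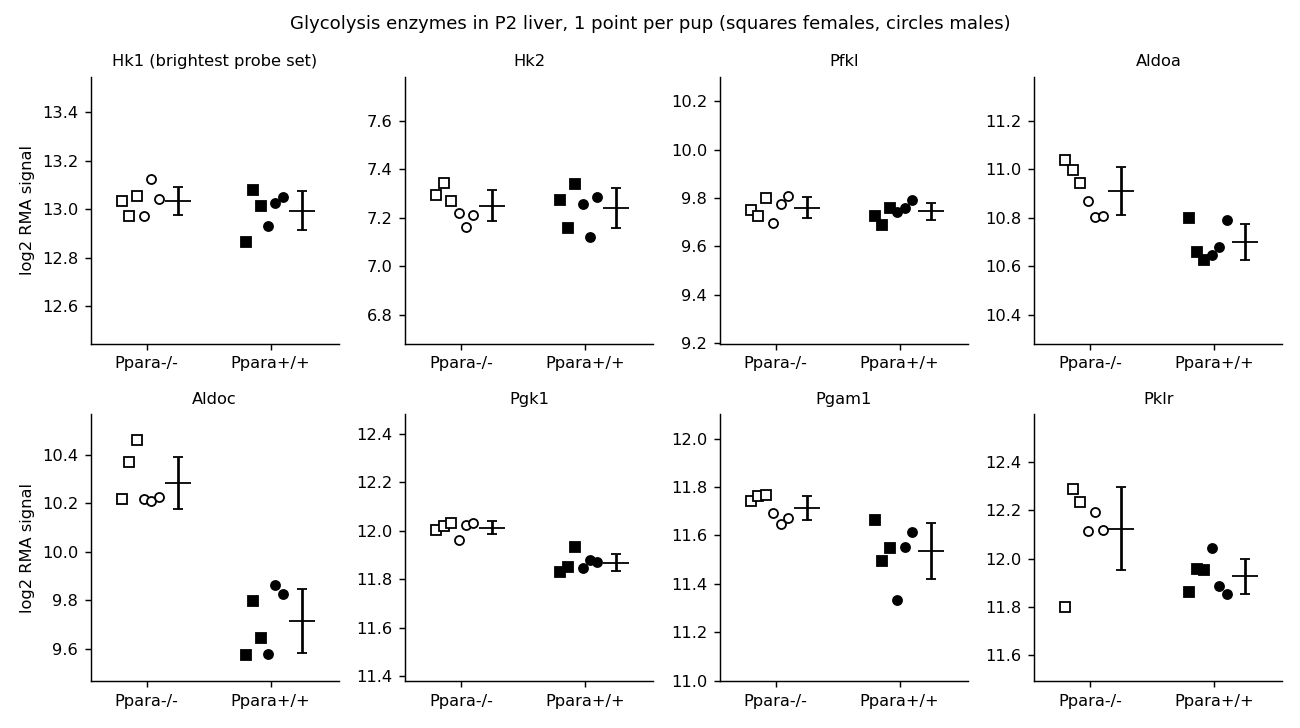
log2 RMA signal of the 8 measured enzymes, 1 point per pup (open, Ppara-/-; filled, Ppara+/+; squares, females; circles, males), with the mean and SD of 6 pups beside each group; every panel spans the same height. The genotypes are apart in Aldoc, Pgk1 and Aldoa and overlap in the other 5.

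*Aldoc*, the aldolase isoenzyme best known from brain, showed the widest difference of the 8. The *Ppara*-/- females had 10.22, 10.37 and 10.46 and the *Ppara*-/- males 10.22, 10.21 and 10.23. The *Ppara*+/+ females had 9.57, 9.80 and 9.64 and the *Ppara*+/+ males 9.58, 9.86 and 9.83. The lowest *Ppara*-/- pup stood above the highest *Ppara*+/+ pup. Means were 10.28 ± 0.11 in *Ppara*-/- livers and 9.71 ± 0.13 in *Ppara*+/+ livers (SD, n = 6 each). *Aldoc* rose 1.48-fold, a log2 fold change of 0.57 (95% interval 0.42 to 0.72, limma adjusted p = 0.000973). The exact permutation test, two-sided and with sex kept, gave p = 0.005, the smallest that its 400 rearrangements can give. The call held when any single array was left out, with adjusted p no higher than 0.00405.

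The promoter of *Aldoc* is shown because this enzyme carried the widest difference. RefSeq gives *Aldoc* a pair of starts, and the window lies before the first of them on the forward strand (GRCm38.p6, chr11:78322823-78323072). Capitals mark a match to TCACNCCAC, the core of the sterol response element, searched on both strands.
Aldoc promoter: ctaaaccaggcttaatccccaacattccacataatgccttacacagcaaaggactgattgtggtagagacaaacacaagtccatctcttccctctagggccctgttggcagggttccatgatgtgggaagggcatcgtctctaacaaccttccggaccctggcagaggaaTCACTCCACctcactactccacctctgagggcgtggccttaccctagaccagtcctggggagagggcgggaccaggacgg
The match spans positions -80 to -72 from the start, and the window before the other start had none. Of 32851 mouse promoter windows of 250 bases 1.05% hold this motif.

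*Pgk1*, which makes the first ATP of the pathway, rose by a small amount with little spread. Values were 12.003, 12.02 and 12.03 in *Ppara*-/- females and 11.96, 12.02 and 12.03 in *Ppara*-/- males. They were 11.83, 11.85 and 11.93 in *Ppara*+/+ females and 11.85, 11.88 and 11.87 in *Ppara*+/+ males. The genotypes did not overlap, although *Ppara*-/- replicate 4 (11.96) stood close to *Ppara*+/+ replicate 9 (11.93). Means were 12.01 ± 0.03 in *Ppara*-/- livers and 11.87 ± 0.04 in *Ppara*+/+ livers (SD, n = 6 each). The log2 fold change was 0.14 (95% interval 0.07 to 0.21, limma adjusted p = 0.044), and the exact permutation p was 0.005. The call was lost when any single array other than *Ppara*+/+ replicate 9 was left out, with adjusted p as high as 0.115 without *Ppara*+/+ replicate 8, while the log2 fold change stayed between 0.13 and 0.15 without any of these 11. A total of 3 probe sets name *Pgk1* alone, of which 2 hold identical values on every array. The remaining one differed by at most 0.0337 on an array and gave 0.14 (limma adjusted p = 0.0454).

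The *Pgk1* promoter is shown as that of the other enzyme that rose (forward strand, GRCm38.p6, chrX:106186850-106187099). Capitals mark the core motif of the hypoxia-inducible factor, ACGTG, on either strand.
Pgk1 promoter: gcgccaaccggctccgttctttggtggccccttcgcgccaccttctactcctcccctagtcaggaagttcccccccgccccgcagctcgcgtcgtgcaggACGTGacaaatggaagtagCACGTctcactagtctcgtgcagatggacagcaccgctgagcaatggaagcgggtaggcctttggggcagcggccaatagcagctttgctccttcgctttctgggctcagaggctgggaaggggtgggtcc
The matches span positions -150 to -146 and -131 to -127 from the start. The motif also occurs in the windows of *Pgam1*, *Hk2* and *Aldoa*, and in 16.6% of all windows. All 9 enzymes, *Gpi1* included, had a RefSeq promoter, 14 windows in all. The E-box CACGTG, held by 6.02% of all windows, and the DR1 motif of nuclear receptors, held by 0.0335%, were in none of the 14.

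**Figure D2:**
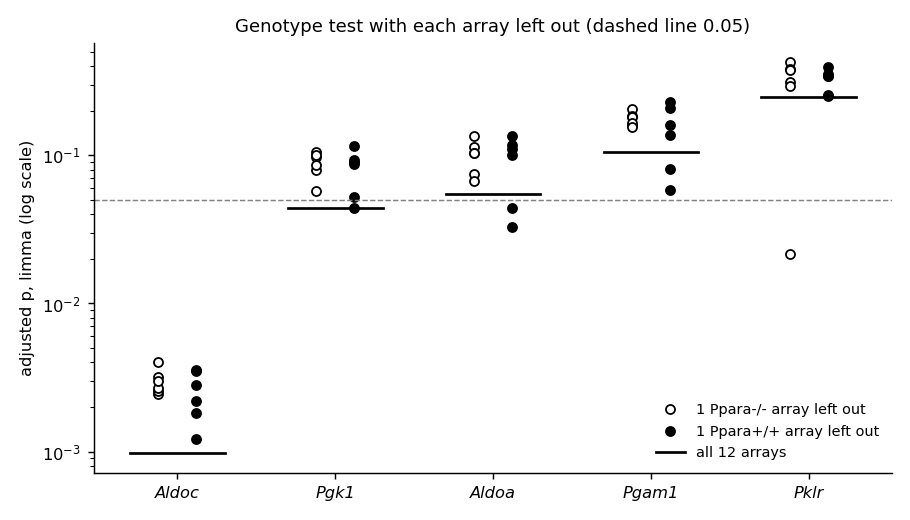
Adjusted p of the genotype test (limma, log scale) for 5 enzymes with each array left out in turn (open, a Ppara-/- array left out; filled, a Ppara+/+ array left out); the bar is the value with all 12 arrays and the dashed line is 0.05. Aldoc stays under the line in every case, Pgk1 stays under it in 1 of 12 cases, and Pklr passes under it only without Ppara-/- replicate 10.

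*Aldoa*, the aldolase of muscle and of most other cells, did not pass. The *Ppara*-/- females had 11.04, 10.9997 and 10.94 and the *Ppara*-/- males 10.87, 10.81 and 10.81. The *Ppara*+/+ females had 10.80, 10.66 and 10.62 and the *Ppara*+/+ males 10.65, 10.68 and 10.79. The genotypes did not overlap, but 2 *Ppara*-/- males at 10.81 stood next to *Ppara*+/+ replicates 7 (10.80) and 3 (10.79). Means were 10.91 ± 0.10 in *Ppara*-/- livers and 10.70 ± 0.08 in *Ppara*+/+ livers (SD, n = 6 each). The log2 fold change was 0.21 (95% interval 0.10 to 0.32, limma adjusted p = 0.0552), with an exact permutation p of 0.005. *Aldoa* passed without *Ppara*+/+ replicate 7 (limma adjusted p = 0.0439) or 3 (0.0329).

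*Pgam1*, the mutase that moves the phosphate of 3-phosphoglycerate, did not pass, and its genotypes overlapped. The *Ppara*-/- pups had 11.74, 11.76 and 11.77 (females) and 11.69, 11.65 and 11.67 (males). The *Ppara*+/+ pups had 11.66, 11.49 and 11.55 (females) and 11.33, 11.55 and 11.61 (males). A single *Ppara*+/+ pup, replicate 7, reached the range of the *Ppara*-/- pups. The log2 fold change was 0.18 (95% interval 0.07 to 0.29, limma adjusted p = 0.105, exact permutation p = 0.005). The other 2 probe sets of *Pgam1* hold identical values and gave 0.15 (limma adjusted p = 0.185).

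*Pklr*, which makes pyruvate and the last ATP in hepatocytes and red cells, did not pass with all arrays. Values were 11.80, 12.29 and 12.23 in *Ppara*-/- females and 12.11, 12.19 and 12.12 in *Ppara*-/- males. They were 11.86, 11.96 and 11.95 in *Ppara*+/+ females and 12.04, 11.89 and 11.85 in *Ppara*+/+ males. One *Ppara*-/- pup, replicate 10 (11.80), stood below every *Ppara*+/+ pup, and the other 5 stood above all of them. The log2 fold change was 0.20 (95% interval 0.03 to 0.36, limma adjusted p = 0.246, exact permutation p = 0.05). Without *Ppara*-/- replicate 10 it was 0.27 (limma adjusted p = 0.0217).

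The *Pklr* promoter is shown because it was the only window of the enzymes with a match to the carbohydrate response element, the pair CACG and CGTG set 9 bases apart. RefSeq gives *Pklr* a pair of starts, and the match lay before the downstream one (forward strand, GRCm38.p6, chr3:89136373-89136622), where capitals mark the match at positions -170 to -154 from the start.
Pklr promoter: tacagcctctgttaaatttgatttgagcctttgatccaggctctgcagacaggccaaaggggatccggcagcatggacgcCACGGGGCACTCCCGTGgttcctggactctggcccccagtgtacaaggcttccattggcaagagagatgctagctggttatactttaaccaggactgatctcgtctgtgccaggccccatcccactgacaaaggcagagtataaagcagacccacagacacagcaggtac
The window before the upstream start had none, and 0.219% of all windows hold the pair. This element is known as the site through which glucose acts on the pyruvate kinase gene in liver. None of the motif matches was tested against the arrays.

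*Pfkl* and *Hk2* showed no difference larger than the spread between pups. *Pfkl*, the committing step, ranged from 9.70 to 9.81 in *Ppara*-/- livers and from 9.69 to 9.79 in *Ppara*+/+ livers. Its log2 fold change was 0.01 (95% interval -0.06 to 0.09, limma adjusted p = 0.896). *Hk2*, the insulin-regulated hexokinase of muscle and fat, ranged from 7.16 to 7.34 in *Ppara*-/- livers and from 7.12 to 7.34 in *Ppara*+/+ livers, near the array medians. Its log2 fold change was 0.01 (95% interval -0.09 to 0.11, limma adjusted p = 0.949).

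*Hk1*, the hexokinase of most tissues, gave different readings from its 2 probe sets. The brighter one carries a single GenBank entry, which is also listed on all 16 probe sets that name the ribosomal protein gene *Rpl17* together with *Hk1*. It ranged from 12.97 to 13.12 in *Ppara*-/- livers and from 12.87 to 13.08 in *Ppara*+/+ livers, a log2 fold change of 0.04 (95% interval -0.06 to 0.14, limma adjusted p = 0.756). The 16 shared probe sets gave log2 fold changes of -0.0021 to 0.12, and none passed. The other *Hk1* probe set carries 8 accessions, RefSeq transcripts among them, and pointed the opposite way. It read 10.02, 9.86 and 10.04 in *Ppara*-/- females and 9.95, 9.94 and 10.09 in *Ppara*-/- males. It read 10.06, 10.18 and 10.29 in *Ppara*+/+ females and 10.19, 10.11 and 10.24 in *Ppara*+/+ males. Most *Ppara*-/- pups lay below the *Ppara*+/+ range, with 1 pup inside it. The log2 fold change was -0.19 (95% interval -0.31 to -0.08, limma adjusted p = 0.0901, exact permutation p = 0.005). Leaving out single arrays gave adjusted p of 0.0425 (without *Ppara*+/+ replicate 7) to 0.199. Which transcript the brighter probe set measures was not tested.

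**Figure D3:**
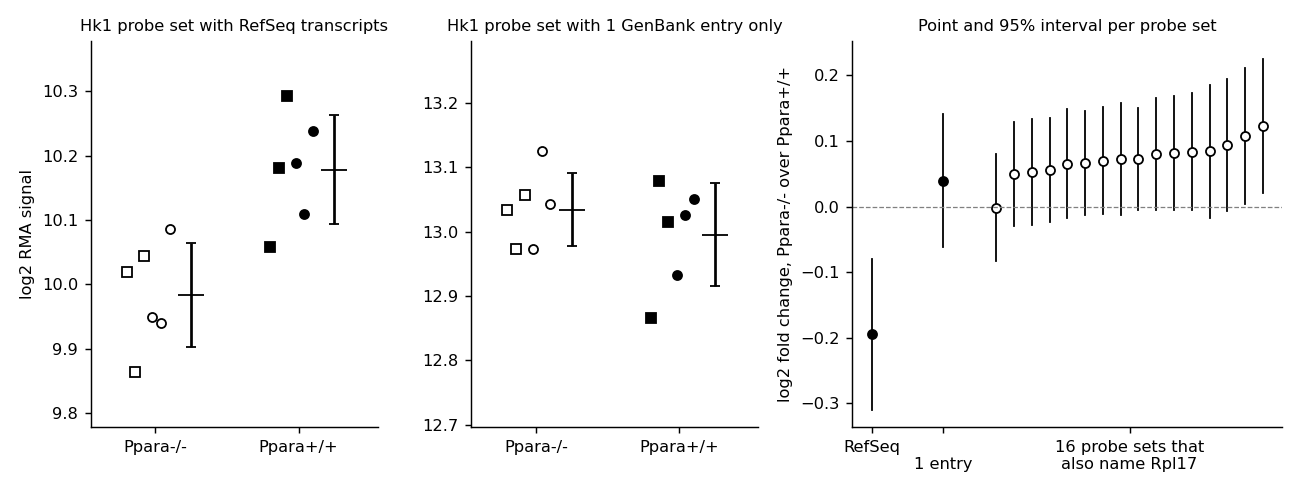
Left and centre, log2 RMA signal of the 2 probe sets that name Hk1 alone, 1 point per pup (open, Ppara-/-; filled, Ppara+/+; squares, females; circles, males) with mean and SD. Right, log2 fold change with its 95% interval for these 2 probe sets (filled) and for the 16 that also name Rpl17 (open); the RefSeq probe set stands at -0.19 and the others between -0.0021 and 0.12.

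The sexes were compared next. The interaction of genotype and sex passed in 0 of 8 enzymes, as in 0% of all genes (limma). No enzyme had an unadjusted p under 0.05, and 1004 of all 35556 probe sets did. *Aldoc* stood at 0.68 in females and 0.46 in males, a difference of 0.22 (SE 0.129, 95% interval -0.07 to 0.50). *Aldoa* stood at 0.30 in females and 0.12 in males, a difference of 0.18 (SE 0.0898, 95% interval -0.02 to 0.38). With 3 pups of each sex and genotype these intervals are wide. Within females 1 of 8 passed, *Aldoc* (limma adjusted p = 0.00827), against 0.321% of all genes higher. Within males 0 of 8 passed, against 0.461% of all genes higher, and *Aldoc* had a limma adjusted p of 0.062. At an unadjusted p under 0.05, 4 of 8 were higher in females, against 5.35% of all genes, and 3 of 8 in males, against 5.5%. Females and males themselves differed in 0 of 8 enzymes, also without adjustment, and in 0.0401% of all genes.

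Isoenzymes of 1 step were set against each other in 5 pairs chosen after their values were seen, so the differences are a description with no test. Each is the genotype difference of the log2 ratio within an array, read from probe sets with RefSeq transcripts. The ratio of *Aldoc* to *Aldoa* differed by 0.36 between *Ppara*-/- and *Ppara*+/+ livers (95% interval 0.19 to 0.54). The ratio of *Hk1* to *Hk2* differed by -0.20 (95% interval -0.33 to -0.08), and with the brighter *Hk1* probe set in its place the sign turned, to 0.03 (95% interval -0.12 to 0.18). The ratio of *Pfkl* to *Pfkm*, the muscle phosphofructokinase, differed by 0.11 (95% interval 0.03 to 0.19). For *Pfkl* to *Pfkp* the difference was -0.10 (95% interval -0.22 to 0.02), and for *Pklr* to *Pkm* it was 0.14 (95% interval -0.05 to 0.32).

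Of 18 further enzymes of the pathway 14 were measured, of which 2 rose and none fell, with a median log2 fold change of 0.03. At an unadjusted p under 0.05 the counts were 2 higher and 1 lower of 14, against 9.27% and 7.89% of all genes. *Tpi1*, which interconverts both triose phosphates made by aldolase, ranged from 12.16 to 12.30 in *Ppara*-/- livers and from 11.99 to 12.13 in *Ppara*+/+ livers. Its log2 fold change was 0.19 (SE 0.0403, limma adjusted p = 0.0318), and the call was lost when any of 9 arrays was left out singly, with adjusted p as high as 0.0884 (without *Ppara*-/- replicate 11). It held without *Ppara*-/- replicate 4 and without *Ppara*+/+ replicates 7 and 3. *Ldhb*, a lactate dehydrogenase subunit, ranged from 7.49 to 7.85 in *Ppara*-/- livers and from 6.999 to 7.37 in *Ppara*+/+ livers, a log2 fold change of 0.45 (SE 0.0715, limma adjusted p = 0.00569). Its other probe set gave 0.29 (limma adjusted p = 0.189). *Ldha*, the main subunit in liver, stood at 0.01 (limma adjusted p = 0.90). Among isoenzymes at the steps of the 8, *Hk3*, *Hkdc1*, *Pfkm*, *Pfkp*, *Pgam2* and *Pkm* had log2 fold changes between -0.10 and 0.11, and none passed. *Bpgm*, the red cell enzyme that makes 2,3-bisphosphoglycerate, stood at -0.34 (SE 0.0929, limma adjusted p = 0.0913). *Eno1* was not analysed here, nor was *Gapdh*, which shares its probe sets with other genes.

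Among 14 of 15 listed regulators of glycolysis and carriers of its substrates, 1 fell and none rose. *Slc16a7*, a carrier of lactate and pyruvate, ranged from 10.89 to 10.99 in *Ppara*-/- livers and from 11.09 to 11.26 in *Ppara*+/+ livers. Its log2 fold change was -0.22 (SE 0.0354, limma adjusted p = 0.00697), and the genotypes did not overlap. The median of this list was 0.05, and 4 of 14 were higher and 4 lower at an unadjusted p under 0.05, against 9.27% and 7.89% of all genes.

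Of 8 enzymes and carriers of gluconeogenesis, all measured, 2 rose, none fell, and the median was 0.14. *Pcx*, which feeds pyruvate into gluconeogenesis, ranged from 12.50 to 12.64 in *Ppara*-/- livers and from 12.33 to 12.41 in *Ppara*+/+ livers (log2 fold change 0.19, SE 0.0345, limma adjusted p = 0.0136). *Slc37a4*, the glucose 6-phosphate carrier, ranged from 11.02 to 11.27 in *Ppara*-/- livers and from 10.71 to 10.96 in *Ppara*+/+ livers (log2 fold change 0.38, SE 0.055, limma adjusted p = 0.00314). Both were without overlap between the genotypes. *Pck1*, *G6pc* and *Fbp1*, at 0.22, 0.21 and 0.09, did not pass (limma adjusted p = 0.105, 0.0623 and 0.281). At an unadjusted p under 0.05 5 of the 8 were higher and 1 lower, against 9.27% and 7.89% of all genes.

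**Figure D4:**
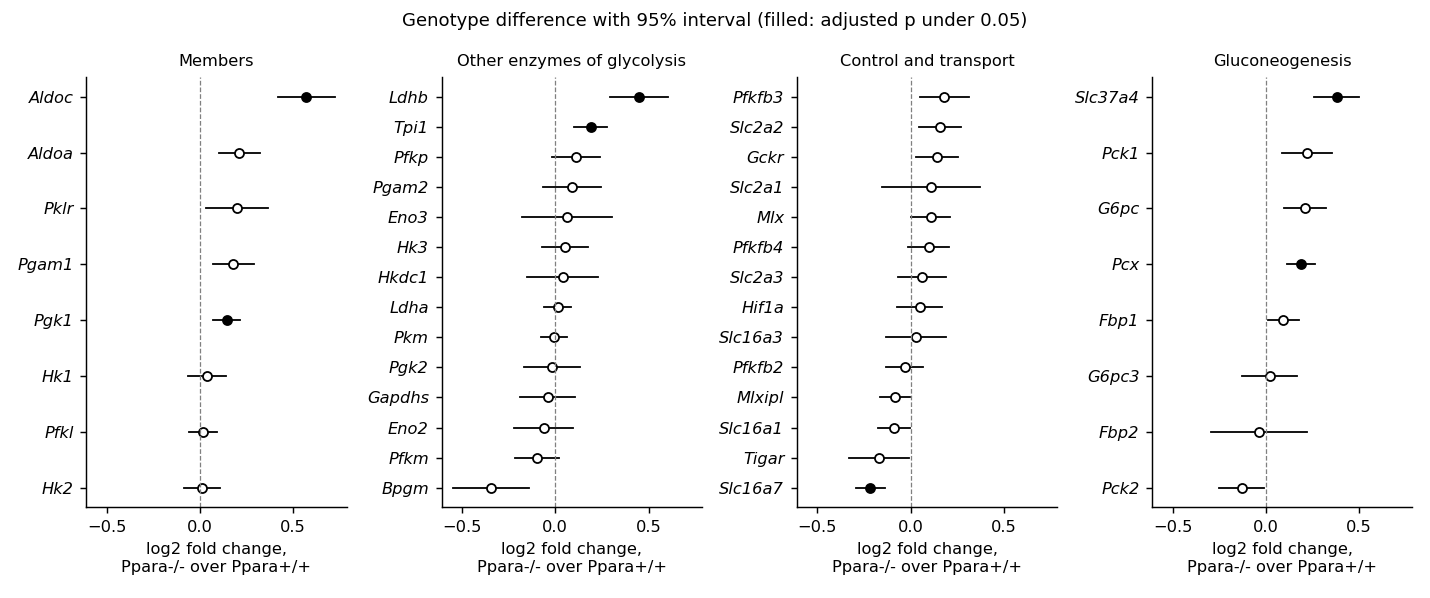
log2 fold change of Ppara-/- over Ppara+/+ livers with its 95% interval for the 8 measured enzymes, 14 other enzymes of glycolysis, 14 genes of control and transport and 8 of gluconeogenesis (filled, adjusted p under 0.05 in limma). The filled points are Aldoc and Pgk1, Ldhb and Tpi1, Slc16a7, and Slc37a4 and Pcx.

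Genes with the most similar profile over the 12 pups were found for both enzymes that rose, as the root mean square difference of log2 values centred on their means. For *Aldoc* these were *Fdps* (0.0996), *Hmgcs1* (0.1002) and *Lss* (0.105), against a root mean square of 0.305 for *Aldoc* itself. Their log2 fold changes were 0.44, 0.47 and 0.60. For *Pgk1* they were *Copb2* (0.023), *Sec22b* (0.0247) and *Spcs2* (0.0294), against 0.0775 for *Pgk1* itself. All share the same 12 arrays, and genes were picked as the nearest of all those measured.

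Markers of the cell types of the liver were read in the same pups, and no marker of any list passed. Markers of hepatocytes had a median log2 fold change of 0.02 (7 of 8 measured), and their mean signal ran from 13.42 to 13.46 in *Ppara*-/- and from 13.38 to 13.48 in *Ppara*+/+ pups. Kupffer cell markers were above 0 in 11 of 11 measured genes, with a median of 0.21. Their mean signal ran from 10.30 to 10.45 in *Ppara*-/- and from 10.03 to 10.43 in *Ppara*+/+ pups. *Ppara*+/+ replicate 7 gave that highest value. Endothelial markers were above 0 in 9 of 9, with a median of 0.12, and ran from 10.36 to 10.45 in *Ppara*-/- and from 10.19 to 10.37 in *Ppara*+/+ pups. Erythroid markers were below 0 in 9 of 9 measured, with a median of -0.19. They ran from 11.36 to 11.69 in *Ppara*-/- and from 11.44 to 11.81 in *Ppara*+/+ pups. In the Kupffer cell, endothelial and erythroid lists, replicate 7 was the only *Ppara*+/+ pup within the *Ppara*-/- range. Markers of dividing cells were below 0 in 6 of 6 measured, with a median of -0.12, and ran from 10.96 to 11.19 in *Ppara*-/- and from 11.11 to 11.29 in *Ppara*+/+ pups. No measured marker of these 5 lists lay below the array medians. Medians for stellate cells, granulocytes, megakaryocytes and cholangiocytes were 0.10, 0.07, 0.04 and 0.07. At an unadjusted p under 0.05, 9 of 11 Kupffer cell and 6 of 9 endothelial markers were higher, against 9.27% of all genes, and 7 of 9 erythroid and 3 of 6 dividing cell markers were lower, against 7.89%. The part of these cells in the values of the glycolytic enzymes was not tested.

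**Figure D5:**
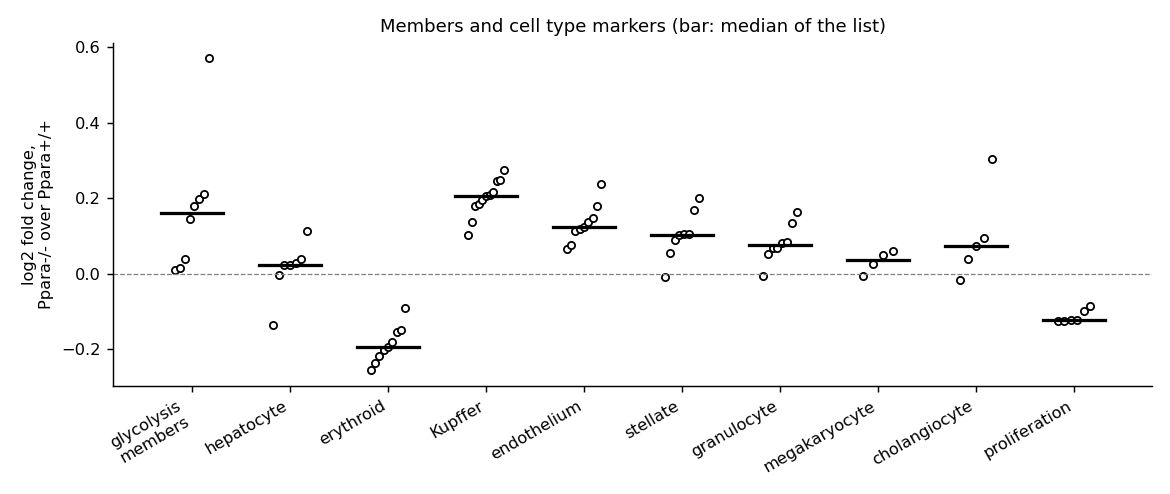
log2 fold change of Ppara-/- over Ppara+/+ livers for the 8 measured glycolytic enzymes and for the markers of 9 cell types or states, 1 point per gene, with the median of each list as a bar. The median stands at 0.16 for the enzymes, 0.02 for hepatocyte, -0.19 for erythroid and 0.21 for Kupffer cell markers.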

How the data were processed

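RNA of whole liver was hybridised by the authors to Affymetrix mouse gene arrays. The authors summarised them by RMA (no version given), and their deposited log2 values were used unchanged. In R 4.3.3 with limma 3.58.1 genotype and sex were fitted to each of 35556 probe sets (lmFit, eBayes), with Benjamini-Hochberg adjustment across all of them and 9 residual degrees of freedom. Interaction and within-sex values came from a fit of 4 groups. Single enzymes also had an exact permutation test within sex. The number of arrays limits the precision. Probe sets were named from the platform annotation given with the arrays. Promoters, taken from RefSeq (GRCm38.p6), span 250 bases before each start. The members and lists were chosen with earlier results of these data known. Named were the members, their isoenzymes, listed pathway genes that passed, *Ppara* and, for each member that passed, the 3 nearest genes; *Bpgm*, *Ldha*, *Pck1*, *G6pc* and *Fbp1* fall outside this rule and were named after their values were seen. The 26 alternatives were other models, scalings, filters, summaries, tests and thresholds, and each array left out; 1 of them, the probe sets with RefSeq transcripts, was added after seeing the data. The fit was tested on simulated data.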

Additional observations from a re-analysis of the deposited data

Results flagged for a closer look

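In 56 groups of 6 pups, the lowest or highest pup was compared with the rest by Dixon's criterion. It flags about 5% of such groups by chance, and here 3 values stood apart. In *Pklr*, *Ppara*-/- replicate 10 had 11.80, the lowest of the *Ppara*-/- group, with a gap to the next pup of 0.643 of the group's range. The same pup had 11.02 in *Slc37a4*, again the lowest, with a gap of 0.72 of the range. In the probe set of *Pgk1* that differs from the other 2, *Ppara*-/- replicate 4 had 11.95, the lowest, with a gap of 0.649 of the range.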

How the results depend on the processing

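No paired analysis was possible because the labels do not give each pup's litter. The count of enzymes that fell was 0 under all 26 alternatives. Most of them read *Hk1* from its brighter probe set. In a fit outside the 26, the *Hk1* probe set with RefSeq transcripts passed as lower without *Ppara*+/+ replicate 7 (limma adjusted p = 0.0425). The count that rose, 2 with all arrays, was 0 with the adjusted exact Mann-Whitney test and with a log2 change beyond 1.3, and 1 with quantile normalization and with a linear change above 1.3-fold. It was 4 without probe sets below the 40th percentile, with a trended robust variance, with array weights and with the unadjusted Mann-Whitney test, 3 with probe sets of 1 gene only and with averaged probe sets, and between 1 and 2 with single arrays left out. *Aldoc* kept its direction throughout (log2 fold change 0.53 to 0.61) and lost its call only under the adjusted exact Mann-Whitney test (p = 0.0691) and the log2 change beyond 1.3. *Pgk1* also lost its call with quantile normalization (limma adjusted p = 0.0667) and in a fit of 4 groups (0.0696). *Aldoa* passed under 9 alternatives and *Pgam1* under 4. *Hk1* turned to -0.0777 as the mean of its probe sets (limma adjusted p = 0.382) and to -0.19 from the probe set with RefSeq transcripts (0.0901). *Hk2* ranged from -0.0157 to 0.0282 with single arrays left out and turned to -0.0031 without *Ppara*-/- replicate 11, -0.0157 without *Ppara*+/+ replicate 8 and -0.0092 without *Ppara*+/+ replicate 2. Among other pathway genes, 4 rose and 1 fell with all arrays, and 3 to 6 rose and 1 fell with single arrays left out. With the adjusted Mann-Whitney test and a log2 change beyond 1.3 there were 0 of either. With a linear change above 1.3-fold 2 rose and 0 fell, and with the unadjusted Mann-Whitney test 10 rose and 4 fell. 2 fell without probe sets below the 40th percentile, with probe sets of 1 gene only, with array weights and with all of a gene's probe sets averaged. Over all genes, leaving out *Ppara*+/+ replicate 7 gave 718 higher and 348 lower. *Ldhb*, *Slc16a7*, *Pcx* and *Slc37a4* kept their calls with any single array left out. The cause of these changes was not tested. Interaction called 0 enzymes under each of the 13 alternatives run for it, and sex called 0 under the 1 alternative run for it. Signals near the array medians, as for *Hk2* and *Ldhb*, limit what can be read of those genes.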
